A study of Homo sapiens with 12 samples.

Results

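The response shared by a mimic and an inhibitor of the microRNA miR-197 was examined, that is, the genes that moved in the same direction after both oligonucleotides. It was measured as the mean of premiR-197 and LNA-miR-197 minus the mean of NC and LNA-miR-NC, which set 6 treated arrays against 6 control arrays and used all 12 arrays of the series. A gene counted as moving the same way when premiR-197 minus NC and LNA-miR-197 minus LNA-miR-NC had the same sign in all 3 cell lines, which is 6 differences of 6. Of 18489 genes whose probe was well above background on all 12 arrays, 3362 met this rule, 2048 upwards and 1314 downwards. The rule has no size limit. The lowest of the 6 differences among the 2048 genes was as small as 0.0001 on the log2 scale, while 2428 further genes were above 0 in exactly 5 of the 6, the nearest of them missing by -0.0001.

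A microRNA lowers the messenger RNAs whose 3′ untranslated regions pair with its seed, so that a mimic and an inhibitor of the same microRNA are used to push its targets in opposite directions. Cells also react to the delivery of an oligonucleotide itself, through RNA sensors, through competition for Argonaute proteins, and through stress pathways such as the integrated stress response, and each control oligonucleotide is meant to cancel that reaction. Making ribosomes is among the most regulated processes of a cancer cell. It takes place in the nucleolus, where small nucleolar RNAs (snoRNAs) guide the chemical modification of ribosomal RNA and assembly factors fold and trim it.

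The 3 lines are human lung adenocarcinoma lines: A549, PC14, and PC14CDDP, a line derived from PC14 that resists cisplatin. Each received 4 oligonucleotides at 25 nM with the lipid reagent DharmaFECT 1. The mimic, premiR-197, resembles the precursor and adds mature microRNA, with NC (labelled AllStar-NC) as its control. The inhibitor, LNA-miR-197, is an antisense strand built with locked nucleic acids, and LNA-miR-NC serves as the control for that chemistry. Each transfection of each line gave 1 one-color Agilent array from 100 ng of total RNA, no transfection was repeated, and the time of harvest is not given in the sources used here. The line is therefore the replicate, and PC14 and PC14CDDP are related. The p-values rest on the residual spread pooled over the 4 transfections of the 3 lines (6 residual degrees of freedom). The model treats the pairs of a line as independent. All A549 arrays lay on slide 1 and all others on slide 2, and the slide column of an oligonucleotide did not vary between lines, with premiR-197 in column 1, NC in 2, LNA-miR-197 in 3 and LNA-miR-NC in 4. Slide column and transfection therefore cannot be told apart. Per array, 55.8% to 63.1% of the probes passed the scanner software's background test, the 75th percentile of signal was between 614 and 715, and arrays correlated at r of 0.888 to 0.995 across genes. Of the markers of lung epithelial carcinoma, KRT7, KRT8, KRT18, KRT19, CLDN4 and CLDN7 were well above background on all 12 arrays, EPCAM on 7, CDH1 on 6, NKX2-1 on 8 and SFTPB on 1. None of the 8 epithelial, 5 leukocyte and 2 endothelial markers tested was called between treated and control cells.

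The mature strands of miR-197, from RefSeq on GRCh38.p14, are shown because the mimic adds the active strand and the inhibitor is directed against it. Capitals mark the seed, bases 2 to 8. They lie at chr1:109598940-109598961 and chr1:109598901-109598923, on the plus strand.
hsa-miR-197-3p: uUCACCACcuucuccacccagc
hsa-miR-197-5p: cGGGUAGAgagggcagugggagg

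With the cell line as a block, limma called 1658 genes higher (8.97% of the 18489 tested) and 1299 lower (7.03%) in treated than in control cells, at an adjusted p under 0.05 (Benjamini-Hochberg). All 6 differences were above 0 for 11.1% of genes and below 0 for 7.11%. Both properties were found together in 2031 genes, 1219 higher and 812 lower, and the other 926 called genes moved against the rest in at least 1 of the 6 differences. The changes were small. The median size over called genes was 0.40 on the log2 scale, which is 1.32-fold, and 48 called genes changed by at least 2-fold, 27 upwards and 21 downwards. With a minimum of 1.2-fold in each of the 6 differences, 125 genes remained above and 135 below. Set against this, 1081 genes were higher with the mimic and lower with the inhibitor in every line, each against its own control. The reverse, lower with the mimic and higher with the inhibitor, was found in 672 genes. Only the reverse is the direction a mimic and an inhibitor are designed to give to targets, which a microRNA lowers. Both groups were counted without a test.

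The pairs share no array. Taken alone, premiR-197 against NC gave 462 called genes (2.50%) and LNA-miR-197 against LNA-miR-NC gave 3064 (16.6%), so that the inhibitor pair held more calls than the mimic pair at the same number of arrays. Of the 2957 genes called in the joint contrast, 1856 were also called in the inhibitor pair, 362 in the mimic pair, 102 in both and 841 in neither. Across the 18489 genes, the mean changes of the pairs correlated at r = 0.204, and within a line at 0.182 (A549), 0.179 (PC14) and 0.198 (PC14CDDP). When the mimic pair of one line was set against the inhibitor pair of another, r ran from 0.045 to 0.240. Genes are not independent replicates, and these coefficients are descriptions.

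The calls rest on the pairing by line and on the lines on slide 2. Without the block limma called 0 genes (543 at an unadjusted p under 0.05), and with the slide in place of the line also 0 (2241 unadjusted). Within slide 1, which holds A549 alone, 0 genes were called (672 unadjusted). Within slide 2, without A549, 2451 were called, 1778 of the 2957 among them. Leaving out PC14 left 1 call (3714 unadjusted) and leaving out PC14CDDP left 0 (3697 unadjusted). All 2957 called genes kept their sign without either line, and 2952 did on slide 1 alone. Those genes were called with the same arrays, so a kept sign is close to given and is no separate check. Without the block the differences are the same by construction. With 6 pairs as blocks and treatment as the only other term, 431 genes were called, and with only treatment and line as terms 388. The counts of called genes in every list below come from the same fit and fall to 0 or 1 with it when the block, PC14 or PC14CDDP is left out.

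The genes named first are those that moved most in the line and pair where they moved least. AIRIM (C1orf109), a factor of 60S ribosomal subunit maturation measured at chr1:38147967-38148026 (hg19), was among the most even. Its log2 level, scaled to the 75th percentile of its array, was -1.05, -0.24 and 0.38 after NC in A549, PC14 and PC14CDDP and -0.23, 0.97 and 1.48 after premiR-197. After LNA-miR-NC it was -0.67, 0.39 and 1.01, and after LNA-miR-197 -0.02, 1.51 and 2.23. The treated array was above its control in every line, and A549 and PC14CDDP lay farther apart than any treated array from its control. The joint difference was 1.02 ± 0.10 (SE) or 2.03-fold (limma adjusted p = 0.0035).

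SLC16A6, a monocarboxylate transporter that carries ketone bodies, was dim and rose furthest in PC14CDDP. Its level was -3.76, -4.46 and -5.30 after NC in A549, PC14 and PC14CDDP against -2.88, -3.09 and -3.18 after premiR-197. It was -3.84, -4.50 and -5.31 after LNA-miR-NC against -2.21, -3.72 and -3.12 after LNA-miR-197. No treated array overlapped a control array, and the joint difference was 1.50 ± 0.20 or 2.82-fold (limma adjusted p = 0.0055). BMP2K, a kinase of clathrin-mediated endocytosis, rose by 0.87, with its 6 differences between 0.62 and 1.26, while its other probes rose by 0.24 and 0.26 only. CDV3 rose by 0.76 and its other probe by 0.87. PLD6, a mitochondrial phospholipase of the piRNA pathway, rose by 1.03, SLC5A12, a lactate transporter, by 0.94, and ZNF669, a zinc finger protein, by 0.79. SPANXA1 rose by 1.83, but belongs to a family of nearly identical X-linked genes whose signals a probe may not separate. The other 4 of the 12 highest were snoRNAs of the H/ACA class.

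Of the 12 genes named lower, CYB5B had the smallest standard error. It encodes the cytochrome b5 of the outer mitochondrial membrane and was measured at chr16:69500108-69500167 (hg19). Its level was -0.74, -0.31 and -1.20 after NC in A549, PC14 and PC14CDDP and -1.78, -1.57 and -2.38 after premiR-197. After LNA-miR-NC it was -0.56, -0.23 and -1.18, and after LNA-miR-197 -1.48, -0.96 and -2.16. Each treated array lay below both controls of its line, by 0.73 to 1.26 below its own, which gave a joint difference of -1.02 ± 0.07 or 2.03-fold (limma adjusted p = 0.0014).

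Among the 12 lowest genes were 2 collagens. COL1A1, the main chain of type I collagen, was at 0.11, -2.73 and -3.58 after NC in A549, PC14 and PC14CDDP and at -1.14, -3.51 and -4.79 after premiR-197. It was at -0.82, -3.28 and -3.60 after LNA-miR-NC and at -2.00, -4.33 and -4.52 after LNA-miR-197, and fell by 1.07 in the mean. Every treated array lay below its control, by 0.79 to 1.25. COL4A5, a chain of basement membrane collagen, fell by 0.92, with differences of -0.61 to -1.42. COL1A1 also marks fibroblasts, but COL1A2, DCN, LUM and PDGFRB, other defining fibroblast markers, were well above background on 0 of 12 arrays, COL3A1 on 1 and THY1 on 4.

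CACNA1G, a T-type calcium channel, fell by 1.09 and KCNMB4, a regulatory subunit of calcium-activated potassium channels, by 0.83. The level of CACNA1G was dim in PC14 and PC14CDDP, between -6.12 and -3.89, and between 0.47 and 1.85 in A549. THSD4, a matrix protein of microfibrils, fell by 1.21, with premiR-197 in PC14CDDP lowest at -2.49. CA11, a carbonic anhydrase-related protein, fell by 0.84, ENTPD8, a cell surface nucleotidase, by 0.82, B3GALT4, a glycosyltransferase of ganglioside synthesis, by 1.34, and the noncoding RNA EOLA2-DT by 0.81. The controls of B3GALT4 differed, at -1.06, -0.57 and -0.85 after NC in A549, PC14 and PC14CDDP and 1.23, -0.03 and 1.57 after LNA-miR-NC. After LNA-miR-197 it was at -1.33, -1.13 and 0.12, so in PC14CDDP it lay above NC. PARP10, a mono-ADP-ribosyltransferase, fell by 1.48, but its other probe gave 0.11 in the mean with signs that differed between lines. EOLA2-DT had 3 other probes, of which 2 were below 0 in all 6 differences and 1 averaged 0.03.

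CTNND1 (p120-catenin, which holds cadherins at the cell surface) is among the genes the study names, and its brightest probe fell after both oligonucleotides. At chr11:57586315-57586374 (hg19) its level was 1.03, 0.42 and 0.04 after NC in A549, PC14 and PC14CDDP and 0.28, -0.27 and -1.23 after premiR-197. It was 0.99, 0.49 and 0.09 after LNA-miR-NC and 0.37, -0.31 and -1.17 after LNA-miR-197, so that the mimic and inhibitor arrays of a line lay side by side, below both controls. The joint difference was -0.90 ± 0.10 (limma adjusted p = 0.0043), and the difference between the pairs was not called (adjusted p = 0.98). A dimmer probe at chr11:57582867-57582926 behaved otherwise. It gave -0.76, -0.34 and -0.42 after premiR-197 but 0.25, 0.23 and 0.21 after LNA-miR-197, so the direction after the inhibitor differed between the probes of this gene.

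SnoRNAs were called higher more often than any other RNA class counted. Of 233 snoRNAs tested, 85 were called higher (36.5%, against 8.97% of all genes) and 1 lower. All 6 differences were above 0 for 92 and below 0 for 1, and the median difference was 0.33, against 0.01 over all genes. The probes of 5 named snoRNAs are printed to show that they are different RNAs: the longest run of bases shared by any pair of them is 6. They are 60-base probes in the files' orientation, placed on hg19 at chr3:186505152-186505211 (plus strand), chr5:111497255-111497314 (plus), chr16:30721922-30721981 (plus), chr11:93465170-93465229 (minus) and chr6:31508892-31508951 (minus).
SNORA63: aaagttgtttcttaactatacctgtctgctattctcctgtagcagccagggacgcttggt
SNORA13: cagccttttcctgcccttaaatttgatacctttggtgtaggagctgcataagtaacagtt
SNORA30: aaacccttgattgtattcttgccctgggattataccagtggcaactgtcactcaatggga
SNORA1: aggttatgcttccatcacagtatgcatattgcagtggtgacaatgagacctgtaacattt
SNORD84: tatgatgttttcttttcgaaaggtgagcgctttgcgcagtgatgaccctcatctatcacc

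The median level of the 233 snoRNAs rose from control to treated array in each of the 6 pairs. In A549 it was -1.25 after NC and -1.13 after premiR-197, and -1.45 after LNA-miR-NC and -1.21 after LNA-miR-197. In PC14 the same medians were -0.58 and -0.34, and -0.67 and -0.35. In PC14CDDP they were -1.07 and -0.67, and -1.13 and -0.32, the widest gap of the 6. Per snoRNA, the median difference after LNA-miR-197 was 0.81 in PC14CDDP but 0.15 in A549 and 0.28 in PC14. The order of the lines was not tested.

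Of the H/ACA snoRNAs (SNORA), which guide pseudouridylation, 45 of 102 were called higher and 1 lower. Of the C/D snoRNAs (SNORD), which guide ribose methylation, 40 of 131 were called higher and 0 lower. The Cajal body RNAs (SCARNA), built alike but directed at the RNAs of the spliceosome, gave 0 of 22 higher and 1 lower (4.55%). Over all genes these shares were 8.97% and 7.03%, and with 22 RNAs such low counts do not set the SCARNA apart from all genes. Their median was -0.38 after premiR-197 and 0.34 after LNA-miR-197. With all genes split by mean level into 4 bins of equal size, 34.3% to 47.4% of the snoRNAs in each bin were called higher, against 4.09% of all genes in the dimmest bin and 12.2% in the bin with the most such calls. Of 651 long noncoding RNAs, which are mostly dim, 22 were called higher (3.38%) and 62 lower (9.52%), against 6.10% of all genes called lower in the dimmest bin and 10.6% in the next. Of the 85 called higher, 70 were above 0 in all 6 differences, 45 were also called in the inhibitor pair and 13 in the mimic pair.

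**Figure D1:**
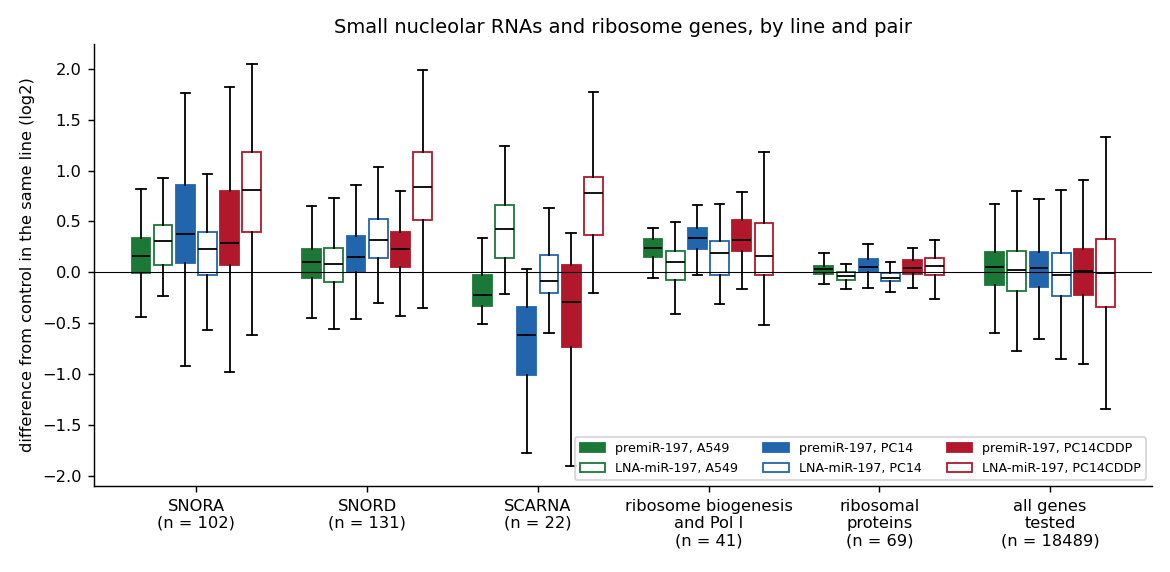
Differences from control (log2, vertical axis) of 6 groups of RNAs, with a box per line and pair (box, quartiles; line, median; whiskers, the farthest value within 1.5 box lengths). The SNORA and SNORD medians lie above 0 in all 6 pairs, while the 22 SCARNA go down after premiR-197 and the 69 ribosomal protein genes stay near 0.

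SNORA63 was at 0.27, 2.06 and 0.89 after NC in A549, PC14 and PC14CDDP and at 0.95, 4.16 and 3.56 after premiR-197. It was at -0.12, 2.50 and 0.80 after LNA-miR-NC and at 0.47, 3.46 and 2.45 after LNA-miR-197. The joint difference was 1.44 ± 0.23 or 2.71-fold (limma adjusted p = 0.0089), and A549 moved least in both pairs. SNORA13 rose by 1.26, SNORA1 by 1.23 and SNORA30 by 1.17. SNORD84 had the largest mean of the called snoRNAs at 1.83, but 2.26 to 4.17 of it fell in the inhibitor pair against 0.30 to 0.80 in the mimic pair, and this difference between the pairs was itself called (adjusted p = 0.036).

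Nearly all snoRNAs are cut from the introns of other genes, so each was set beside the gene it lies in. By RefSeq positions, 203 of the 233 lay inside exactly 1 other gene, 27 inside several and 3 inside none. The 78 called-higher snoRNAs with 1 such gene came from 60 genes, and 59 of those genes were tested. Of the 59, 14 were called higher (23.7%) and 0 lower, with a median of 0.09, against 18 of 108 (16.7%) for the tested genes around any snoRNA and 8.97% over all genes. Over the 186 snoRNAs with 1 such tested gene, called or not, the change of the snoRNA and that of its gene correlated at r = 0.02, and the snoRNA had the higher value in 140. EIF4A2, a translation initiation factor with SNORA63 in an intron, changed by 0.24 (limma adjusted p = 0.26). It also holds SNORA4 and SNORA81, which were not called, at 0.41 and 0.30. TAF1D, which holds the called SNORA1, SNORA8, SNORA18 and SNORA32, changed by 0.09 (limma adjusted p = 0.50). It also holds SNORA25, SNORA40, SNORD5 and SNORD6, which were not called, at 0.13, 0.04, 0.08 and 0.14. The ribosomal protein genes RPS2 and RPL7A held called snoRNAs while their own changes were -0.02 and -0.03. In RPL7A, SNORD24 (0.33) and SNORD36B (0.04) were not called. In contrast SNHG17 and SNHG15, noncoding host genes, rose by 0.82 and 0.66. SnoRNAs of 1 host share their precursor and are not independent. The labelling kit copies RNA from the poly(A) tail, which mature snoRNAs lack, and whether these probes read mature snoRNAs or longer precursors was not tested.

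Genes for proteins of the same process were also called higher. Of 41 genes of ribosome biogenesis and RNA polymerase I, 17 were called higher (41.5%, against 8.97% of all genes) and 0 lower. All 6 differences were above 0 for 19 and below 0 for 2. The median was 0.23 (0.31 after premiR-197 and 0.15 after LNA-miR-197). BYSL, needed for the small subunit, was at 3.01, 4.11 and 4.52 after NC in A549, PC14 and PC14CDDP and at 3.38, 4.45 and 4.85 after premiR-197. It was at 3.1, 4.34 and 4.66 after LNA-miR-NC and at 3.45, 4.89 and 5.63 after LNA-miR-197, a joint rise of 0.49 ± 0.10 (limma adjusted p = 0.015). RRN3, which recruits RNA polymerase I to ribosomal DNA, rose by 0.45 and RRP12, an export factor, by 0.43. The other probes of RRN3 gave 0.10 and 0.33. DKC1, the pseudouridine synthase of H/ACA particles, rose by 0.34, NOP58, a core protein of C/D particles, by 0.29, and NOP2, a ribosomal RNA methyltransferase, by 0.42. The 69 ribosomal protein genes gave 0 calls in either direction by limma (0 also at an unadjusted p under 0.05), with a median of 0.02. MYC, a regulator of ribosome biogenesis, rose by 0.38 ± 0.09 (limma adjusted p = 0.022), with 0.56, 0.87 and 0.57 after premiR-197 in A549, PC14 and PC14CDDP and -0.01, 0.15 and 0.14 after LNA-miR-197.

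The E-box CACGTG, which reads the same on both strands, was found in the promoters of 12 of 37 ribosome biogenesis genes with a promoter sequence (32.4%) and in 6 of the 15 called higher, against 1107 of the 10888 tested genes that have one (10.2%). A promoter here is the 300 bases from 250 before to 50 after the start in RefSeq (GRCh38.p14). A match is a stretch of letters and shows no binding. The promoter of BYSL, chr6:41921249-41921548 on the plus strand, is printed with its match in capitals.
BYSL: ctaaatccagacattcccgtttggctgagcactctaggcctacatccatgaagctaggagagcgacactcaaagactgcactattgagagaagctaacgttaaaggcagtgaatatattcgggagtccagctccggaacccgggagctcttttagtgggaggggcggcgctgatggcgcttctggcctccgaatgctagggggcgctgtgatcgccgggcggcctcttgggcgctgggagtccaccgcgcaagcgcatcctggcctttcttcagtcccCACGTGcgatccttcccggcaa

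Some genes of the integrated stress response were called higher, among them both chains of the cystine transporter. Of 40 ATF4 and unfolded protein response genes, 9 were called higher (22.5%) and 1 lower (2.5%), against 8.97% and 7.03% of all genes. The median of this list was 0.10. SLC7A11, the cystine-glutamate exchanger, was at 3.78, 1.86 and 0.82 after NC in A549, PC14 and PC14CDDP and at 4.60, 2.58 and 1.64 after premiR-197. It was at 4.45, 2.60 and 1.22 after LNA-miR-NC and at 4.81, 3.97 and 3.95 after LNA-miR-197, and the joint rise was 1.14 ± 0.26 or 2.20-fold (limma adjusted p = 0.023). Its partner chain SLC3A2 rose by the same 1.14 ± 0.25 (limma adjusted p = 0.019), with differences from 0.14 to 2.08. The transcription factor ATF4 rose by 0.54, and DNAJC3, an inhibitor of eIF2α kinases, by 0.55. DDIT3 (CHOP) rose by 0.97, but not in every pair, since LNA-miR-197 in A549 gave -0.08. HSPA5 (BiP), the main chaperone of the endoplasmic reticulum, fell by 0.42. Among the 30 not called were ATF3 at 1.07, CHAC1 at 0.09, ASNS at 0.01, ALDH1L2 at -0.19 and DDIT4 at -0.63. The ATF4 motif TGATGNAA, searched on both strands, stood in 5 of 36 promoters of the list (13.9%), of which SLC3A2 was the 1 called higher, against 180 of 10888 (1.65%).

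Of 26 NRF2, heme and antioxidant genes (median 0.12), 8 were called higher (30.8%) and 2 lower (7.69%), against 8.97% and 7.03% of all genes. HMOX1, which degrades heme, rose 2.30-fold, mostly after premiR-197, with 1.66, 1.89 and 2.64 in A549, PC14 and PC14CDDP against -0.30, 0.67 and 0.65 after LNA-miR-197. ABCC2, an export pump, rose by 0.44. Of 41 lysosome and autophagy genes (median 0.06), 10 were called higher (24.4%) and 3 lower (7.32%), against 8.97% and 7.03% of all genes. NPC1, the lysosomal cholesterol exporter, rose by 0.50, the autophagosome protein MAP1LC3B by 0.47 (its other probe 0.20), and the autophagy receptor SQSTM1 by 0.52, while UVRAG, a regulator of autophagosome maturation, fell by 0.47.

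Some targets of the Hippo effector YAP were among the larger increases. CCN2 (CTGF), a matricellular growth factor, was at -1.04, -3.80 and -1.23 after NC in A549, PC14 and PC14CDDP and at -0.95, -1.25 and 0.08 after premiR-197. It was at -1.13, -3.34 and -1.0 after LNA-miR-NC and at -0.50, -0.41 and 2.05 after LNA-miR-197, so A549 hardly moved after the mimic while PC14 moved by 2.55 and 2.93. The joint rise was 1.76 ± 0.37 or 3.39-fold (limma adjusted p = 0.018). AMOTL2 and LATS2, both brakes on YAP that YAP also induces, rose by 0.92 and 0.79 in all 6 differences, and YAP1 by 0.32. Of 31 actin cytoskeleton and YAP or SRF targets, 5 were called higher (16.1%) and 2 lower (6.45%), against 8.97% and 7.03% of all genes. The median of this list was 0.07 (0.15 after premiR-197 and -0.08 after LNA-miR-197), and 13 of the 31 means were below 0. MYH9, the heavy chain of nonmuscle myosin, and VCL, vinculin, were the 2 called lower. The TEAD motif GGAATG, searched on both strands, stood in 7 of 26 promoters of the list (26.9%), against 1166 of 10888, and 3 times in that of CCN2, shown at chr6:131951323-131951622 (GRCh38.p14, minus strand) with the matches in capitals.
CCN2: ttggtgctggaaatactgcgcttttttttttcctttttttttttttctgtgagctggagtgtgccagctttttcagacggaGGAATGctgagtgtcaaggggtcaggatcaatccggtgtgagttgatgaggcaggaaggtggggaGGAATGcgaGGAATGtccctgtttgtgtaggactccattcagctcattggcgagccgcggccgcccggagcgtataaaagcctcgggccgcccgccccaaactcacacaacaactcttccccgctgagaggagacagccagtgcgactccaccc

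Of 30 immediate-early and AP-1 genes, 5 were called higher (16.7%, against 8.97% of all genes) and 0 lower (median 0.23). CCN2 and MYC belong to this list too. FOSB, a subunit of AP-1, rose by 0.95, most after LNA-miR-197 in PC14CDDP (2.38). DUSP2, a phosphatase of MAP kinases, rose evenly by 0.66 ± 0.08 (limma adjusted p = 0.0043), with differences between 0.43 and 0.97. The AP-1 motif TGANTCA, on either strand, stood in 1 of 22 promoters of the list (4.55%) and 508 of 10888 (4.67%). Of 36 p53 targets, 5 were called higher (13.9%, against 8.97% of all genes) and 0 lower, with a median of 0.15. Those that rose included PLK2, a kinase, by 0.97, GADD45A, a growth arrest protein, by 0.75 and the death receptor TNFRSF10A by 0.51, the last with differences between 0.39 and 0.63.

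Of the pathway lists plotted by share of calls, interferon-stimulated genes and RNA sensors had the most called lower (18.8%). Of 32 tested, 6 were called lower and 1 higher, and 26 of the 32 means were below 0, but 1 gene alone (3.13%, against 7.11% of all genes) was below 0 in all 6 differences. The list had a median of -0.20 (-0.33 after premiR-197 and -0.10 after LNA-miR-197). PARP9, a cofactor of interferon signalling, fell by 0.74, with -0.61, -0.94 and -1.39 after premiR-197 in A549, PC14 and PC14CDDP and 0.10, -0.52 and -1.08 after LNA-miR-197. PSMB9, a subunit of the immunoproteasome, fell by 0.59 and RIGI, the sensor of double-stranded RNA ends, by 0.44. HERC5, the ligase of the ubiquitin-like ISG15, went the other way and rose by 0.38 in all 6 differences. A549 stood apart in this list, with a median of 0.11 after LNA-miR-197 where PC14 and PC14CDDP had -0.25 and -0.29. DHX58, a further RNA sensor, was below 0 in all 6 differences with a mean of -0.70, but was not called (limma adjusted p = 0.21). Its level after LNA-miR-197 (-1.13, -0.75 and -0.25 in A549, PC14 and PC14CDDP) was above that after NC (-2.59, -1.08 and -2.72) in each line.

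Of 33 epithelial junction and epithelial-mesenchymal transition genes, 4 were called lower (12.1%) and 2 higher (6.06%), against 7.03% and 8.97% of all genes. The median of this list was -0.02. Besides CTNND1, plakoglobin (JUP), which links cadherins and desmosomes to the cytoskeleton, fell by 0.64 and alpha-catenin (CTNNA1) by 0.38, and PKP3, a desmosomal plakophilin, averaged -0.40 with all 6 differences below 0 but was not called (adjusted p = 0.073). SNAI1, a repressor of E-cadherin, rose by 0.57 and the desmosomal cadherin DSC2 by 0.77. Of 37 genes of glycolysis and hypoxia, 3 were called lower, a share of 8.11% near the 7.03% of all genes, and 0 higher (median -0.11). Those that fell included PFKFB4, a regulator of glycolytic flux, by 0.74 and the glucose transporter SLC2A3 by 0.47, although the other probe of SLC2A3 averaged 0.01. H2BC5, a core histone, rose by 0.32.

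Of 35 genes of microRNA processing and silencing, the machinery that both oligonucleotides act on, 26 were not called. The 5 called higher were 14.3% of the list (8.97% over all genes) and the 4 called lower 11.4% (7.03%), with a median of 0.06. DICER1, which cuts precursors into mature microRNAs, was at 1.70, 1.11 and 1.61 after NC in A549, PC14 and PC14CDDP and at 1.35, 0.34 and 0.35 after premiR-197. It was at 1.18, 0.62 and 0.91 after LNA-miR-NC and at 0.95, 0.50 and 0.46 after LNA-miR-197. It fell by 0.53 ± 0.11 (limma adjusted p = 0.018), with -0.79 in the mean after the mimic and -0.26 after the inhibitor. AGO2, the slicing Argonaute, rose by 0.34, DGCR8, the partner of Drosha, by 0.42, the scaffold of the deadenylase complex CNOT1 by 0.45 and the decapping enzyme DCP2 by 0.42. The helicase MOV10 fell by 0.40 and the deadenylase PAN2 by 0.34.

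**Figure D2:**
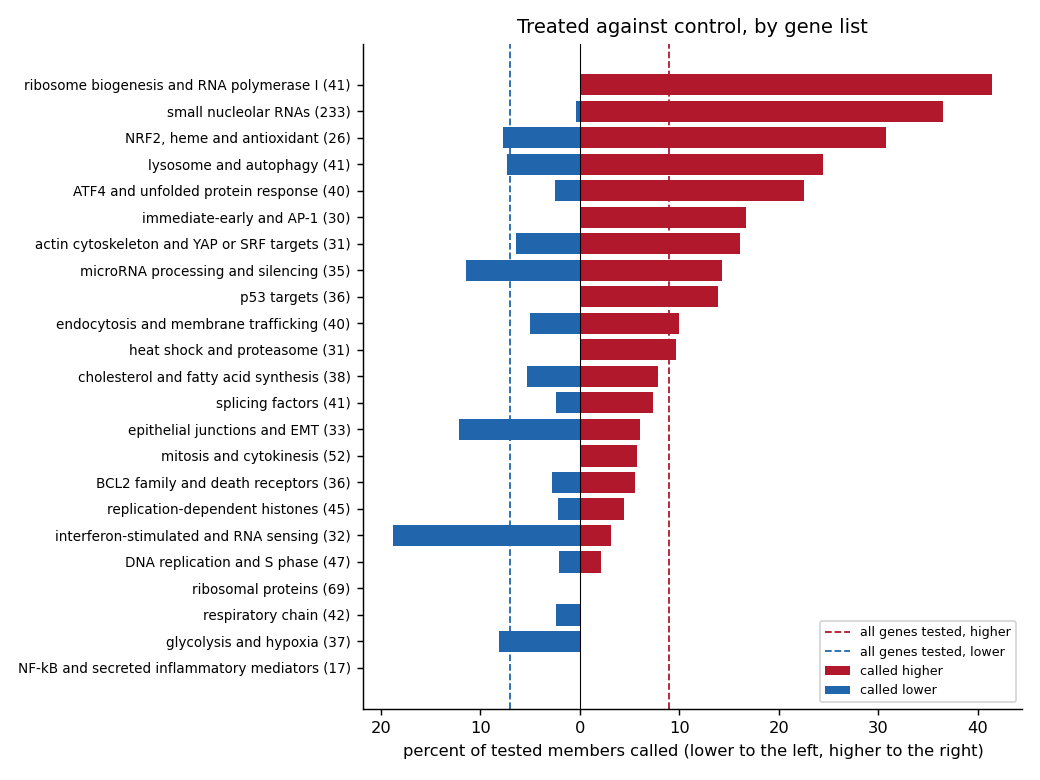
Percent of the tested members of each list called higher (red, to the right) and lower (blue, to the left) in treated against control cells, with the number tested in parentheses and dashed lines at 8.97% and 7.03%, the shares over all genes. Ribosome biogenesis and snoRNAs lie farthest above the higher line, and interferon genes farthest beyond the lower one.

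Other lists had shares of called genes near or under those of all genes. Mitosis gave 3 genes higher and 0 lower of 52, DNA replication 1 and 1 of 47, splicing factors 3 and 1 of 41, the respiratory chain 0 and 1 of 42, heat shock and the proteasome 3 and 0 of 31, and cholesterol and fatty acid synthesis 3 and 2 of 38. Endocytosis gave 4 and 2 of 40, the BCL2 family and death receptors 2 and 1 of 36, histones 2 and 1 of 45, and NF-kB and inflammatory mediators 0 and 0 of 17 by limma (4 at an unadjusted p under 0.05). All 6 differences were above 0 for 12 splicing factors, 8 endocytosis genes, 8 mitosis genes and 5 heat shock or proteasome genes. These were larger shares than the 11.1% of all genes. DNA replication, cholesterol and fatty acid synthesis, and histones had 4 each, the respiratory chain 3, the BCL2 family 2 and NF-kB 1. All 6 were below 0 for 4 endocytosis genes, 2 splicing factors and 0 mitosis or heat shock genes. Single genes of these lists moved in every pair. VPS4B, an ATPase of membrane scission, rose by 0.59, HSF2, a heat shock factor, by 0.48, the kinetochore protein CENPF by 0.31 and the replication licensing factor CDT1 by 0.37. CLTC, the clathrin heavy chain, rose by 0.38, nearly all of it after LNA-miR-197. NDUFV1, a subunit of respiratory complex I, fell by 0.28 and the splicing factor SRSF6 by 0.37, while the other probe of SRSF6 averaged 0.20.

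Of the 9 genes the study names, CTNND1, ERLIN2 and MYC passed the test of the joint contrast. ERLIN2, a lipid raft protein of the endoplasmic reticulum, fell by 0.73, but by 1.09, 1.29 and 1.63 after premiR-197 in A549, PC14 and PC14CDDP and by 0.01, 0.19 and 0.14 after LNA-miR-197. Its other probe gave -1.21, -0.88 and -1.23 after premiR-197 and 0.20, 0.28 and 0.78 after LNA-miR-197. CKS1B, a cyclin kinase subunit, had -0.19, -0.22 and -0.39 after premiR-197 and 0.00, 0.09 and 0.18 after LNA-miR-197, and CD274 (PD-L1) -0.08, -0.15 and -0.53 against 0.66, 1.32 and 1.53, opposite directions that the joint contrast does not hold (adjusted p = 0.38 and 0.091). CEP55, STAT3, BCL2 and CCND1 averaged -0.04, 0.07, 0.03 and -0.14 and were not called. The dimmer probe of BCL2 was below 0 in all 6 differences with a mean of -0.45, that of STAT3 averaged -0.22 and that of CEP55 0.17, so the probes of these 3 genes had means of opposite sign.

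The pairs differed from each other in 530 genes by the test of the difference (2.87%). Of the 3362 genes with 6 differences of one sign, 37 were among them, and of the 2957 called genes, 212. A gene called in the joint contrast can thus be carried mostly by 1 pair, as ERLIN2 and HMOX1 were by the mimic and SNORD84 by the inhibitor. A further probe was measured for 816 of the called genes, 1119 probes in all. Of these probes, 82.5% had the sign of the probe that stood for the gene, against 70.0% of 6120 further probes over all genes.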

How the data were processed

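One-color Agilent arrays of 60-base probes were hybridized with RNA of 12 transfections. The authors extracted the spots with Agilent Feature Extraction 10.7.3.1, per the labels, and deposited for each spot an intensity, its local background and a processed signal that is background-subtracted and not scaled between arrays. A deposited table of intensities equaled the processed signal on every spot, and 0 columns belonged to other samples. Here, control and outlier spots were left out, spots of 1 probe were averaged, and processed signals were divided by their array's 75th percentile before log2. Of 50599 probes, 106 lacked a value on an array and 24609 were well above background on all 12. The brightest stood for its gene. Names came from RefSeq (GRCh38.p14) by accession for 55.7% of probes, and otherwise from the files. Probe positions are those of the files (hg19).

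A linear model of 4 transfections and the cell line (block) was fitted across the 12 arrays in limma 3.58.1 under R 4.3.3, followed by eBayes (prior degrees of freedom 3.35, residual 6) and Benjamini-Hochberg adjustment over 18489 genes. All limma tests are two-sided. The line pairs the arrays by the labels: deviations from the transfection means correlated at 0.880 to 0.956 between arrays of a line. The methods name Student's t-test, which was run as an alternative. The members and gene lists were chosen with earlier results of these data known. Genes named by rule are the 12 called in each direction with the largest smallest-of-6 difference, the 3 of each list with the largest change among those that moved the same way in all 6, and the 9 genes of the study. Other list members and host genes were named after their values were seen, as were the motifs searched. A fold is 2 to the power of a log2 difference. The fit was tested on simulated arrays. The number of arrays limits precision. Files were read and plots drawn in Python 3.11.15 (pandas 2.3.3, matplotlib 3.10.9). Results for some genes are not reported here.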

Additional observations from a re-analysis of the deposited data

Results flagged for a closer look

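For 2 of the genes named by rule, the change after the mimic differed from the change after the inhibitor by the limma test of that difference, although both pairs moved the same way. ERLIN2 changed by -1.22 ± 0.18 (SE) more after premiR-197 than after LNA-miR-197 on the log2 scale (adjusted p = 0.025). After LNA-miR-197 alone ERLIN2 changed by -0.11 ± 0.13 (limma adjusted p = 0.57), and its other probe rose in that pair in all 3 lines. SNORD84 changed by -2.52 ± 0.47 in the same comparison, that is, it rose further after LNA-miR-197 (adjusted p = 0.036). Groups of 3 arrays are too small for a check of single arrays.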

How the results depend on the processing

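Quantile normalization, normexp with an offset of 50, the mean of a gene's probes and a trended, robust eBayes gave 2972, 3383, 2839 and 3416 called genes in the joint contrast, against 2957, and 86.9%, 92.1%, 88.3% and 96.2% of the 2957 were called again in the same direction. The deposited table gave identical calls. With probes well above background on at least 3 arrays 1527 genes were called, and with no filter on dim probes 219. The fit without the replicate block gave 0, the slide in place of the line as block 0, 6 pairs as block 431, 2 groups and line 388, the methods' t-test 0 after Benjamini-Hochberg (652 at p under 0.05), and slide 1 alone, chosen after seeing the data, 0. Leaving out a line gave 0 to 2451 calls. For premiR-197 against NC (462), normexp gave 744, the filter on 3 arrays 54, no filter 3, no replicate block 0 (189 unadjusted) and leaving out a line 0 to 124. For LNA-miR-197 against LNA-miR-NC (3064), the filter on 3 arrays gave 1903, no filter 517, no replicate block 0 (673 unadjusted) and leaving out a line 9 to 2576. For the difference between the pairs (530), normexp gave 916, the filter on 3 arrays 27, no filter 1, no replicate block 0 (292 unadjusted) and leaving out a line 0 to 0 (2244 to 4461 unadjusted). Genes above 0 in every remaining difference numbered 2857 to 3323 with a line left out, and those below 0 1921 to 2894, fewer differences being required.

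Of the 91 genes named by rule, of which 69 were called, 3 changed sign under an alternative, and none of these was called. The 69 were called with the same arrays, so a kept sign with a line left out is no separate check. With the mean of a gene's probes CEP55 gave 0.062, STAT3 -0.076 and BCL2 -0.21, and on slide 1 alone 0.157, -0.084 and -0.24. With a line left out CEP55 gave -0.15 to 0.032 and BCL2 -0.041 to 0.16. The causes were not tested. No list median changed by more than its spread over the 6 pairs, except those of splicing factors with the mean of a gene's probes (0.10) and of endocytosis under quantile normalization (-0.07). The snoRNA median stayed between 0.22 and 0.42 and that of ribosome biogenesis between 0.20 and 0.27. Treatment, slide column and the order of handling cannot be told apart, and time, dose and an untransfected control were not part of the design.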

Other observations

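Some of the larger joint changes belonged to genes that no rule named, chosen here after their values were seen. SKIL, a repressor of SMAD signalling, rose by 1.59, with 0.25 and 0.25 in A549 after premiR-197 and LNA-miR-197 but 1.92 and 1.88 in PC14 and 2.23 and 2.99 in PC14CDDP. RASSF1, a regulator of the Hippo kinases, rose by 1.51, with its smallest difference (0.18) after premiR-197 in A549. The small MAF protein MAFF rose by 1.05, SDE2, a factor of genome stability and splicing, by 1.0, and the zinc finger gene ZFP37 by 1.18, each further after LNA-miR-197 than after premiR-197 in all 3 lines. IL22RA1, a chain of the interleukin-22 receptor, fell by 1.13, with -1.70, -1.73 and -2.35 after premiR-197 in A549, PC14 and PC14CDDP against -0.07, -0.47 and -0.46 after LNA-miR-197. MYO1A, a brush border myosin, fell by 1.27, with -0.18, -0.71 and -0.84 after premiR-197 and -1.54, -1.71 and -2.62 after LNA-miR-197.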
